A study of Homo sapiens with 3 samples.

Results

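HA-PSF-TFE3 binding was examined at 6 genes of lysosomal proteases, the cathepsins CTSA, CTSB, CTSD, CTSL, CTSS and CTSZ. Peak summits were assigned to a gene by position alone, when they fell in a window holding the gene and about 10 kb on each side. On hg19 the windows, in kb, were 44510 to 44537 and 57560 to 57592 on chromosome 20 for CTSA and CTSZ, 1764 to 1795 on chromosome 11 for CTSD, 90330 to 90356 on chromosome 9 for CTSL, 150693 to 150748 on chromosome 1 for CTSS, and 11690 to 11736 on chromosome 8 for CTSB. The windows held 19 of the 44983 summits of replicate 8 and 16 of the 28084 summits of replicate 9, a mean of 17.5 ± 2.12 (SD, n = 2). CTSA, CTSB, CTSD and CTSZ had summits placed alike by both libraries, CTSL had a summit in replicate 8 alone, and CTSS had none.

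Cathepsins digest proteins inside lysosomes and are made as inactive precursors that mature in the acid lumen. CTSB, CTSL, CTSS and CTSZ are cysteine proteases, CTSD is an aspartic protease, and CTSA is a serine carboxypeptidase that also protects other lysosomal enzymes. TFE3 and its relatives TFEB and MITF are basic helix-loop-helix leucine zipper factors that bind E-boxes, short DNA words of the form CANNTG. Many lysosomal genes carry the E-box CACGTG close to their start, and that E-box with its flanks is known as the CLEAR element. The PSF-TFE3 fusion of translocation renal cell carcinoma and PEComa joins SFPQ, also named PSF, to the DNA-binding part of TFE3.

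The cells were HK-2, an established human proximal tubule line, carrying an HA-tagged, doxycycline-inducible PSF-TFE3 and kept for 24 h in 0.2 µg/ml doxycycline. Chromatin was recovered through the HA tag in 2 libraries, replicates 8 and 9, which the study describes as separate clones of the line. The background for peak calling was 1 input DNA library with the same doxycycline dose and time, and its clone is not given. Each peak is given by its summit, the base of highest enrichment, with a score that is −log10 of its q-value, so a score is evidence over input and not an amount of bound protein. No uninduced cells were compared here, and a single group of 2 libraries allows no test of conditions. Positions near each gene are given from its 5′ edge, which is the window's bound less its 10 kb flank on the side that the annotated strand gives. Window widths less both flanks came within 0.07 to 0.649 kb of the RefSeq gene lengths, which checks width and not position. Edges were taken to carry an uncertainty of about 1 kb, and a shift of a whole window was not checked.

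The promoters of CTSA, CTSD, CTSL and CTSZ are shown for the E-boxes they hold, and are the 4 of the 6 that the RefSeq promoter table gave. Each runs from 250 bases before to 50 bases after the RefSeq start, 5′ to 3′ on the gene's strand, on GRCh38.p14, at chr20:45891085-45891384 (plus strand), chr11:1763878-1764177 (minus strand), chr9:87725869-87726168 (plus strand) and chr20:59007205-59007504 (minus strand). These coordinates cannot be set against the hg19 summits. Capitals mark CACGTG, and CATGTG read on the opposite strand as CACATG.
CTSA: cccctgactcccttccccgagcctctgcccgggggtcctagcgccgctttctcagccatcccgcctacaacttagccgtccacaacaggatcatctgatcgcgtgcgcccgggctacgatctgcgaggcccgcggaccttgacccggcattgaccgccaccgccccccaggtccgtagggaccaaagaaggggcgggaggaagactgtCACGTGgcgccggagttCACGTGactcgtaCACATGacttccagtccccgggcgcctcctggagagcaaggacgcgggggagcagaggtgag
CTSD: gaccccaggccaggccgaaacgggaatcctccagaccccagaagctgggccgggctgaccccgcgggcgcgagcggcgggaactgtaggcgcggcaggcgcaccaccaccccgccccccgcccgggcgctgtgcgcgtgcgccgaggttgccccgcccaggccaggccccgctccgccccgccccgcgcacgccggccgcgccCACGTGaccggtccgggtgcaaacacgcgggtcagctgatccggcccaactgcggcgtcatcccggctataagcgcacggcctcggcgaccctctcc
CTSL: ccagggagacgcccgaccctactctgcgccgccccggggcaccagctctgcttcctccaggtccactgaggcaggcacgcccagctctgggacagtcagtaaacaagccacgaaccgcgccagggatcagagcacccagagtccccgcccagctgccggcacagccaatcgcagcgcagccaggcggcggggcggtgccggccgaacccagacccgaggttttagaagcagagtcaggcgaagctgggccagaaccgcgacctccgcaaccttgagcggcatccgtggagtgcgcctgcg
CTSZ: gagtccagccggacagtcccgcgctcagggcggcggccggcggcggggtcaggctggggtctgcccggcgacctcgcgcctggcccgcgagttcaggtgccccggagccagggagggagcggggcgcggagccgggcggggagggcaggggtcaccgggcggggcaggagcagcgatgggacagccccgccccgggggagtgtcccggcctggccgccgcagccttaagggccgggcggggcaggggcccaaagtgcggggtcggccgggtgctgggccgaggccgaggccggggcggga
The CTSA promoter held CACGTG at 2 places, beginning 42 and 25 bases before the start, and CATGTG 12 bases before it. The CTSD promoter held 1 CACGTG, beginning 47 bases before the start. Neither CTSL nor CTSZ held CACGTG in these 300 bases. No sequence under any summit was read, so this search does not show which summits lie on an E-box. CACGTG, which reads alike on both strands, occurred in 7.26% of the 35116 RefSeq promoters of the same length. The longer word TCACGTG, searched on both strands and overlapping CACGTG wherever it occurs, matched at 3 positions in CTSA and 1 in CTSD, and in 3.71% of all promoters. CATGTG was held by 11.1% of all promoters. TGANTCA, the word bound by AP-1 factors, occurred in none of these 4 promoters and in 7.71% of all. A general E-box, CANNTG, which includes the words above other than TGANTCA, was found in all 4 and in 68.7% of all promoters. The 4 promoters were rich in G and C, from 66.7% in CTSA to 81.0% in CTSZ, against a median of 58.7% over all promoters.

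CTSZ, a carboxypeptidase that removes single residues from the ends of its substrates, had the highest scores of any cathepsin window. Its leading summit lay on chromosome 20 at 57583241 in replicate 8 and at 57583256 in replicate 9, 15 bp apart and about 1.25 kb upstream of the 5′ edge. It scored 54.1 in replicate 8 (rank 250) and 57.6 in replicate 9 (rank 989). Both libraries therefore placed it high, above 99.4% and 96.5% of their lists. Of all 21518 pairs of mutually nearest summits in the series, 2.62% had a better rank in their poorer library. For the best pairs of CTSD, CTSA and CTSB this share was 26.0%, 30.2% and 56.5%. A further CTSZ summit lay 2.77 kb farther upstream, at 57586014 and 57586020, and scored 29.3 and 21.4. It too was placed within 6 bp by both libraries. The gene body held only a weak summit in replicate 8, at 57579130 with a score of 2.09, and replicate 9 had none within 4126 bp of it.

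CTSA had 3 shared summits, and the replicates placed each within 21 bp. The strongest lay at the 5′ edge, 0.08 kb upstream of it, on chromosome 20 at 44519931 in replicate 8 and 44519910 in replicate 9, with scores of 23.5 and 19.0. The other pairs lay upstream, at 44513586 and 44513589 with scores of 15.4 and 11.8, and at 44512567 and 44512563 with scores of 7.42 and 7.16. Replicate 8 gave the same order of the 3 sites as replicate 9. The flank on that side also holds NEURL2, SPATA25 and ZSWIM1 in GRCh38, so sites on that side, the pair at the edge included, cannot be tied to CTSA by position. Replicate 9 alone had a summit at 44519108, 0.89 kb upstream of the edge, with a score of 9.75, and the closest replicate 8 summit was 823 bp away.

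CTSB, which cuts both within proteins and from their ends, had 4 summits in each library and all of them were shared. None lay at the 5′ edge. In the upstream flank, a pair at 11732508 and 11732476 on chromosome 8 scored 13.9 in replicate 8 and 9.47 in replicate 9. Another, at 11734940 and 11734877, scored 12.8 and 3.26. Inside the gene, a pair at 11720263 and 11720286 scored 6.24 and 7.55, and a pair at 11711581 and 11711638 scored 5.40 and 13.6. Neither library had a CTSB summit in the highest 10% of its scores. By rank within the lists, the site deepest in the gene stood higher in replicate 9 and the other sites stood higher in replicate 8. At the outermost site the score was above 67.7% of its list in replicate 8 but 5.74% in replicate 9, and 1.79% of all pairs showed a gap at least as wide.

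CTSD, the main aspartic protease of the lysosome, held the most summits, 8 in replicate 8 and 6 in replicate 9. They formed 5 shared pairs spread over 11.9 kb. The pair at the 5′ edge lay on chromosome 11 at 1784992 in replicate 8 and 1785086 in replicate 9, 94 bp apart, with scores of 15.9 and 8.50. The highest score of the window was inside the gene instead, about 3.04 kb from the edge, at 1782000 and 1781927, where replicate 8 scored 15.7 and replicate 9 scored 45.9. Replicate 8 thus put the edge and the internal site level, whereas in replicate 9 the internal site was far ahead. Between them, a pair at 1784120 and 1783940 was 180 bp apart, the widest separation of any shared cathepsin pair, with scores of 8.63 and 2.52. Its place in the 2 lists also differed widely, above 52.1% of replicate 8 and 2.17% of replicate 9. Upstream, a pair at 1793888 and 1793896 scored 7.11 and 9.47, and a weak pair at 1790622 and 1790751 scored 3.65 and 3.53.

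The remaining CTSD summits were weak. Replicate 8 alone had summits at 1790260 and 1791110 on either side of the weak upstream pair, with scores of 3.67 and 3.65. In the downstream flank, replicate 8 had a summit at 1771553 with a score of 4.39 and replicate 9 had a summit at 1771326 with a score of 7.55. These lay 227 bp apart, just beyond the 200 bp that defines a shared site. In GRCh38 the downstream flank of CTSD also holds IFITM10.

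CTSL, a cysteine protease that cuts within proteins, had 1 summit in its window, in replicate 8, at 90341399 on chromosome 9 and 1.40 kb inside the 5′ edge. It scored 6.58, and the nearest replicate 9 summit was 12773 bp away. Just beyond the window, however, both libraries had a strong summit. It lay 1.38 kb outside the window and 11.4 kb upstream of the 5′ edge, at 90328624 in replicate 8 and 90328626 in replicate 9, 2 bp apart. Its scores were 57.8 (rank 160) and 92.4 (rank 79), above every summit inside the 6 windows in the same library. Replicate 9 had a further summit there, at 90326998 with a score of 14.1. In GRCh38 the next protein-coding gene on the upstream side of CTSL is DAPK1, and the pair was not assigned to either gene.

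CTSS, a cysteine protease best known for trimming the invariant chain in antigen-presenting cells, had no summit in either library across its 55 kb, the widest of the windows. The nearest summit of replicate 8 on the 5′ side was at 150782352 on chromosome 1, 34.4 kb outside the window, with a score of 30.8 and a replicate 9 summit 78 bp away. Replicate 9 had another summit closer to the window, at 150781620 and 33.6 kb outside it. That summit scored 18.1, and the closest replicate 8 summit was 732 bp away. In GRCh38 the next protein-coding gene on that side is CTSK, the cathepsin used as a diagnostic marker of TFE3-rearranged tumours. The position of CTSK itself on hg19 was not analysed here, nor were the other cathepsin genes. A missing summit means only that no peak passed the calling threshold, at a depth that the lists do not give.

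**Figure D1:**
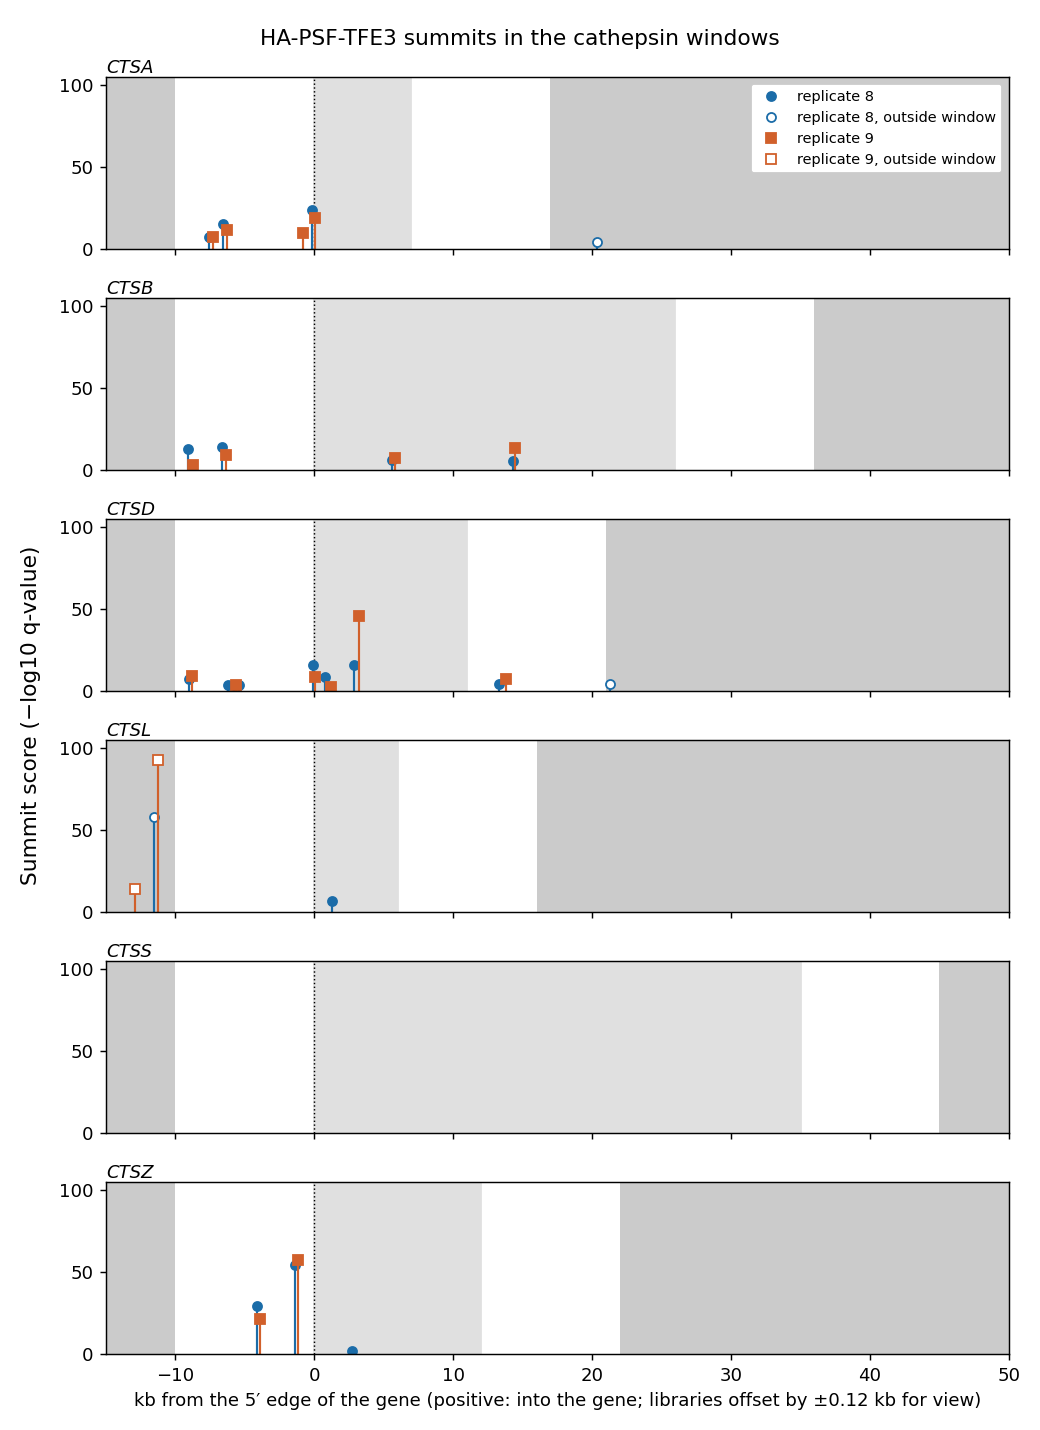
Position of each summit along the cathepsin genes in kb from the 5′ edge of the gene (x axis, positive values into the gene) and its score as −log10 q-value (y axis, linear), with circles for replicate 8 and squares for replicate 9. Light grey marks the gene, white its flanks and dark grey the sequence beyond the window, where summits are drawn hollow. CTSZ and CTSA had their strongest shared summits within 2 kb of the edge, CTSD had its highest score inside the gene, and the strong CTSL pair, with scores of 57.8 and 92.4, lay just beyond the window.

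Several pairs lay close to a gene start. CTSA, CTSD and CTSZ, 3 of the 6 genes, had a shared pair within 2 kb of the 5′ edge, and CTSD had 2. Position does not assign the CTSA pair to CTSA over its upstream neighbours. For comparison, the genome was cut into consecutive tiles of 4 kb, the same width, and 2.67% of the 764340 tiles held a shared pair. Tiles were laid without regard to genes, whereas each window holds a gene, and the values at other genes were not analysed here. The 6 genes were also chosen with earlier results of these data known, so the tile shares are a description and not a test. In all, 4 of the 6 genes had at least 1 shared pair in their window, and 16.0% of 97069 tiles of 31.5 kb, the median window width, had one. At the width of each window, 0.115% of tiles held at least as many shared pairs as the CTSD window. This share was 0.933% for CTSA, 0.966% for CTSB and 4.42% for CTSZ. No shared pair, as at CTSL and CTSS, was the commonest state, in 86.3% and 75.8% of tiles of their widths. The cathepsin genes thus ranged from windows with many sites to windows with the value most tiles had.

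**Figure D2:**
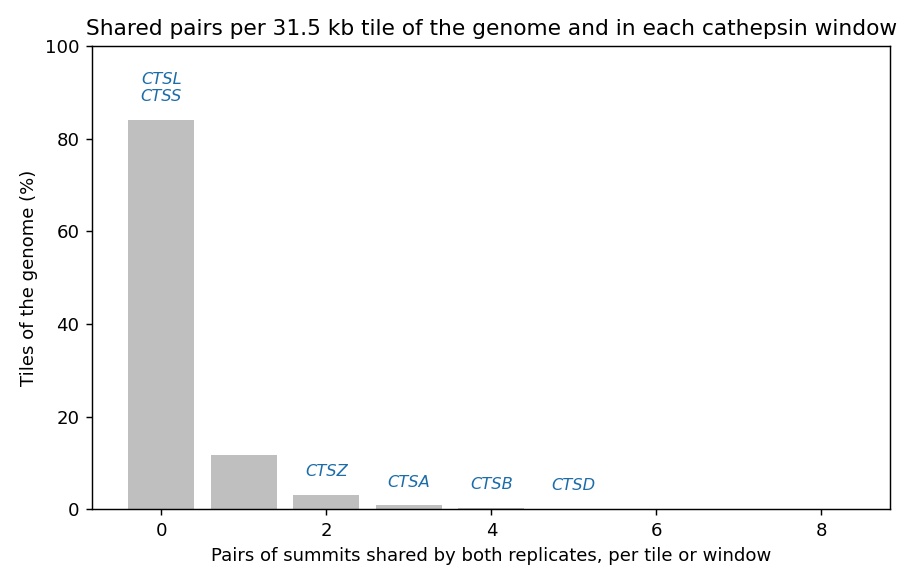
Percent of 31.5 kb tiles of the genome (y axis) by the number of shared summit pairs they hold (x axis), with each cathepsin gene written above the bar of its own count. Windows differ in width from the tiles, from 26 to 55 kb. Tiles without a pair made up 84.0%, where CTSL and CTSS stood, and 0.073% held 5 pairs, the count of CTSD.

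The density of summits over all 217 kb of windows was 87.6 per Mb in replicate 8 and 73.7 per Mb in replicate 9, against 14.7 and 9.19 per Mb for the whole lists, or 5.95 and 8.03 times as dense. The whole-list values count assembly gaps and sequence without genes, whereas each window holds a gene. Windows of other genes were not analysed, and the genes were chosen with earlier results of these data known. Whether the ratios are particular to cathepsin genes was therefore not tested. CTSD held 8 of the 19 and 6 of the 16 summits, and without its window the mean of both ratios fell from 6.99 to 4.94.

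Recurrence between the libraries was read against that of the whole lists. Of the 19 replicate 8 summits, 14 had a replicate 9 summit within 200 bp (73.7%, 95% Wilson interval 51.2 to 88.2%), beside 47.9% of the whole list. Of the 16 replicate 9 summits, 14 had a replicate 8 summit within that distance (87.5%, 95% Wilson interval 64.0 to 96.5%), beside 76.6%. These intervals cover counting error only, and summits of the same window are not independent, so no test is drawn from them. The 14 pairs had a median separation of 27.5 bp, from 3 to 180 bp, compared with 52 bp over all pairs. The closest agreement was at CTSA and CTSZ and the widest at CTSD. The 5 unpaired summits of replicate 8 scored 2.09 to 6.58, and the 2 of replicate 9 scored 7.55 and 9.75.

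Ranks in the cathepsin windows covered nearly the whole range of each list, though scores did not. The highest window score was 54.1 in replicate 8 and 57.6 in replicate 9, beside 107 and 145 in the whole lists. Of the 19 summits in replicate 8, 8 (42.1%) scored 10 or more, beside 41.7% of its list, and of the 16 in replicate 9, 6 (37.5%) did so, beside 51.6%. The median summit of the windows scored above 45.8% of its list in replicate 8 and 46.0% in replicate 9. The full range ran from 0.936% to 99.4% in replicate 8 and from 2.17% to 96.5% in replicate 9. The highest 10% of scores took in 2 of the 19 summits in replicate 8 and 2 of the 16 in replicate 9. In replicate 8 both belonged to CTSZ, and in replicate 9 they were the leading CTSZ summit and the CTSD summit inside the gene.

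Taken alone, the 14 shared pairs had a median rank above 68.9% of the list in replicate 8, beside 72.5% over all pairs, and above 46.0% in replicate 9, beside 56.1%. Of these pairs, 11 stood higher in replicate 8 and 3 in replicate 9, with a median difference of -13.9 percentage points (replicate 9 minus replicate 8). The median over all pairs was -10.5 points, and 25.7% of all pairs stood higher in replicate 9. The 3 cathepsin pairs that did were the CTSD site inside the gene, the farthest upstream CTSD site and the CTSB site deepest in the gene. Spearman's rho of the 2 ranks was 0.623 over the 14 pairs and 0.728 over all pairs, given as a description, since sites of the same libraries share their depth and list length.

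**Figure D3:**
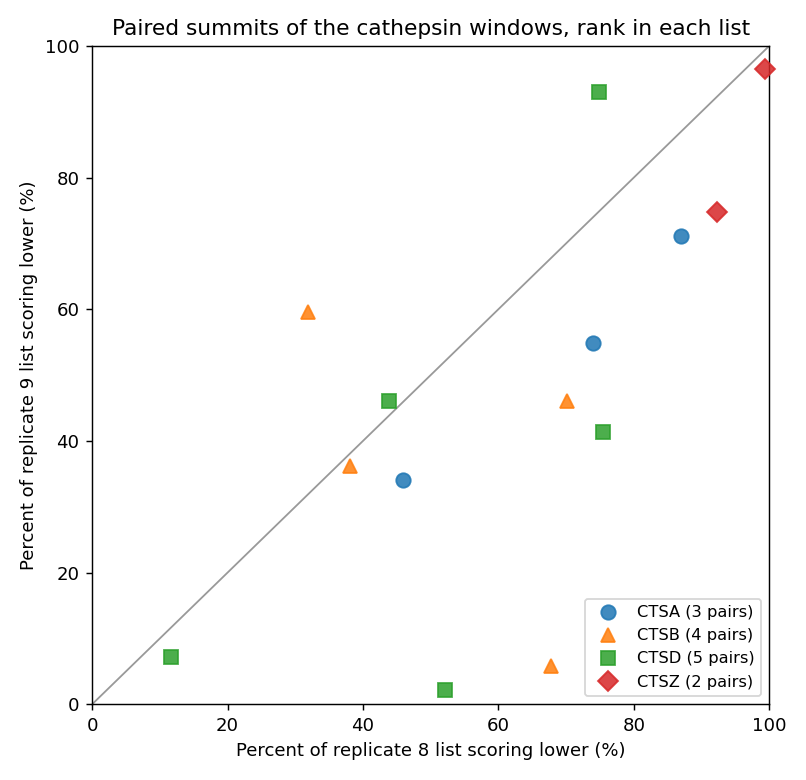
Rank of the 14 shared pairs as the percent of the list that scored lower, in replicate 8 (x axis) and replicate 9 (y axis), with a symbol for each gene and a line of equal rank. The CTSZ pair at 99.4% and 96.5% stands at the upper right, the CTSB and CTSD pairs at 5.74% and 2.17% of replicate 9 lie far below the line, and the CTSD pair inside the gene lies above it at 74.8% and 93.0%.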

How the data were processed

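Doxycycline-induced HK-2 cells were profiled by ChIP-seq for HA-PSF-TFE3, giving 2 ChIP libraries and 1 input library, grouped by their labels. The series design text names PRCC-TFE3 in place of this fusion, and the labels were followed. The authors called peaks with MACS2 in each library alone against input and deposited 1 summit per peak with a score, −log10 of the q-value, not normalised between libraries. The study names both hg38 and hg19, and both a p-value and a q-value cutoff. The lowest scores were 1.373 in replicate 8 and 1.335 in replicate 9. Both lie just above 1.301, which is −log10 of the stated q-value cutoff of 0.05. Of the summits, 364 in replicate 8 and 262 in replicate 9 lay beyond the ends of hg38 chromosomes. The lists were therefore taken as hg19, which the labels name, without a test against hg19 sequence, and no coordinate was converted. The lists carry no read depth, although the study reports reads per library, and the precision of each summit was not assessed.

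Positions are counted from 1. A summit was shared when the other list had a summit within 200 bp, and pairs are mutually nearest summits. Ranks are within a list. Tiles ran to the last summit of each chromosome, assembly gaps included. Strand and neighbouring genes came from GENCODE on GRCh38, names and order only, and gene lengths and promoters from RefSeq, which gave 4 of the 6 promoters. All 6 genes are named, with every shared pair, and the best pair is that with the best rank in its poorer library. The genes and window lists were chosen with earlier results of these data known. Alternatives were distances of 50 and 500 bp, minimum scores of 5 and 10, equal list lengths, windows trimmed by 5 kb or widened by 10 kb, edge distances of 1 and 5 kb, each library alone, a shorter promoter of 200 bases and a general E-box. The pairing code was tested on simulated data. The software was pandas 2.3.3, scipy 1.17.1 and numpy 2.4.6 under Python 3.11.15, with figures from matplotlib 3.10.9.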

Additional observations from a re-analysis of the deposited data

How the results depend on the processing

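The number of genes with a shared pair stayed within 1.5 times its value of 4 in each setting run. It was 5 with windows widened by 10 kb, which took in the strong CTSL pair, and 3 with a minimum score of 10, where CTSB dropped out. The number with a pair near the 5′ edge was 2 with a minimum score of 10 or within 50 bp, without CTSD, and 2 within 1 kb of the edge, without CTSZ. Summits per library fell from 17.5 to 7 with a minimum score of 10, and to 10.5 both with trimmed windows and without the CTSD window, and each library alone gave 16 to 19. The replicate 8 share that recurred was 92.3% with equal list lengths, 42.1% within 50 bp and 89.5% within 500 bp. The replicate 9 share was 75.0% with equal list lengths, 50% within 50 bp and 93.8% within 500 bp. Shares over the whole lists were not computed at these settings. The median rank of each library, averaged over both libraries, was 45.9%. This average was 43.98% with a minimum score of 10, 49.1% with equal list lengths, 52.8% with trimmed windows, 50.1% with widened windows and 59.4% without CTSD. The median was 45.8 to 46.0% in each library alone. The density ratio was 4.94 without CTSD and 5.95 to 8.03 in each library alone. Promoters with CACGTG numbered 2 of 4, also in the shorter promoter, and all 4 held CANNTG. Leaving out the CTSD window was chosen after seeing the data. Distances and minimum scores change these values by construction, and why the remaining values moved was not tested. Shares and pairs need both libraries, so neither could be left out for them. No paired analysis was possible because there is 1 group and the result comes from no test.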
